A study of Mus musculus with 9 samples.

Results

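Interferon-stimulated antiviral effectors are the genes whose products act directly on a virus or detect it inside an infected cell. The list held 42 such genes of the mouse, chosen by symbol and function: the IFIT and OAS families, the Mx and guanylate-binding GTPases, cytosolic RNA sensors, PARP and ubiquitin-like enzymes and other restriction factors. A gene counted as measured where a transcript cluster of the array named it alone, and 38 of the 42 were measured, among 19698 genes in all. Gbp6 was present only in a cluster shared with 5 related genes, and Irgm2, Uba7 and Ifi44 were not analysed here.

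The data came from 9 Affymetrix mouse Gene ST arrays of 3T3 cells, an established fibroblast line, in 3 groups of 3 arrays. BAFkd_st cells carried a knockdown of the BAF chromatin remodelling complex and were treated with the cytokine TNF-α at 5 ng/ml for 1 h. The control_st cells were control cells given the same TNF-α treatment, and the control_ns cells were control cells that received none. Knockdown cells without TNF-α were not analysed here, so the effect of the knockdown was read only in TNF-treated cells. The knockdown was a stable short hairpin RNA driven by a U6 promoter in a retroviral vector with GFP, in cells sorted for high GFP, and the sources used here do not say whether the control cells carried a vector. Values are log2 RMA signals, in which a difference of 1 is a doubling. The number of arrays limits the precision.

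In textbook outline, secreted type I interferon binds its receptor and activates the kinases JAK1 and TYK2. A transcription factor complex that holds STAT2 and IRF9 then binds the interferon-stimulated response element (ISRE) in the promoters of antiviral genes. Interferon-γ acts through a different element, GAS. TNF-α signals mainly through NF-κB, and fibroblasts are a classical interferon-producing and interferon-responding cell.

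Smarca4, which encodes the ATPase BRG1 of the BAF complex, had levels of 10.50, 10.64 and 10.25 on the BAFkd_st arrays, against 11.62, 11.53 and 11.56 on the control_st arrays and 11.66, 11.56 and 11.63 on the control_ns arrays. The knockdown arrays lay below all control arrays, and the difference from control_st was -1.11 ± 0.09 (SE; limma adjusted p = 0.00362). Smarca2, which encodes the alternative ATPase BRM, had 9.12, 9.38 and 9.12 in BAFkd_st cells and 9.51, 9.81 and 9.39 in control_st cells (difference -0.36 ± 0.20, adjusted p = 0.734). These groups did not overlap, but the knockdown arrays overlapped the control_ns levels of 9.18, 9.94 and 9.22. With arrays paired by replicate number the difference from control_st did not pass either (limma adjusted p = 0.129). The paper reports from quantitative RT-PCR that the hairpin reduced both transcripts.

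Promoter windows from RefSeq (build GRCm38.p6), running from 250 bases before to 50 bases after a start, were given for 30 of the 42 genes, and they show the element through which much of the list is known to be controlled. The ISRE core, written GAAA, any 2 bases and GAAA and searched on both strands, was present in 15 of the 30 (50%), against 3.99% of all 27025 genes with a window. The stricter form with CT between the repeats, which is contained in the first, was in 8 of the 30 (26.7%), against 0.263% of genes. GAS, spelled TTCNNNGAA, was found in 10 of the 30 (33.3%), against 9.55% of genes, and the NF-κB motif in 2 (6.67%; Oasl1 and Bst2), against 5.14%. The stretches below surround the cores that lie before the start, in the 6 genes with the largest knockdown differences among those holding one, and in Ifit1, which was added after its values were seen because it kept nearly the same mean with the knockdown. Capitals mark the core, read 5′ to 3′ on the gene's strand. Where the capitals begin with TTTC the core lies on the opposite strand.
Gbp7 (chr3:142530258-142530317, + strand): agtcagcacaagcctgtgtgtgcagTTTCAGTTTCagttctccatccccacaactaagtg
Gbp3 (chr3:142559974-142560039, + strand): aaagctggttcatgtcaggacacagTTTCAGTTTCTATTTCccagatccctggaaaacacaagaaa
Irgm1 (chr11:48871421-48871475, - strand): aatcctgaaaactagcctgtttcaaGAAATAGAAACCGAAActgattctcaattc
Ifit3 (chr19:34583348-34583441, + strand): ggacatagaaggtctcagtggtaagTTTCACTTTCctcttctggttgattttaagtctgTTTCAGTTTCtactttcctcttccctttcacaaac
Stat2 (chr10:128270251-128270310, + strand): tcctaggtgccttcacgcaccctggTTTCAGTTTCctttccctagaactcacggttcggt
Bst2 (chr8:71537562-71537627, - strand): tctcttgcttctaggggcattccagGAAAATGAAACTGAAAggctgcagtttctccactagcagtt
Ifit1 (chr19:34640760-34640838, + strand): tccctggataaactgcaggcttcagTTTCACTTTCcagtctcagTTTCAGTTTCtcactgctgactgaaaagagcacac

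The stricter form occurs in 6 of these 7 stretches, on either strand, and Irgm1 is the one without it. The 7 genes were picked by their knockdown differences, which ran from 1.13 for Gbp7 to 0.02 for Ifit1. That range therefore says nothing about the core. Of the measured members with a window, the 14 with a core had a median knockdown difference of 0.15 and the 13 without one had 0.38, with 3 and 4 called genes in the blocked fit described next. A match is a description of the letters in this window only.

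The main comparison set BAFkd_st against control_st cells and asked which antiviral effectors differed between knockdown and control cells, both TNF-treated. An effect of the hairpin, the vector or the sorting was not tested apart from that of less BAF complex. Of the 38 measured genes, 32 had a higher mean in BAFkd_st cells and 6 a lower one, with differences between -0.08 and 1.13 on the log2 scale and a median of 0.21, against a median of 0.01 over all genes. In the limma fit without a block no member passed an adjusted p of 0.05. Its lowest member adjusted p was 0.0599. Before adjustment, 13 members had a p under 0.05, all of them higher. Over all genes, 0.0355% were called higher and 0.102% lower in that fit, and 3.69% were higher and 4.75% lower before adjustment. With the replicate number as a block, which pairs arrays of the same number, 10 members were called higher and 0 lower, where 0.98% of all genes were called higher and 2.33% lower. The 10 were Gbp7, Parp14, Xaf1, Gbp3, Ifi35, Rtp4, Herc6, Parp12, Oas1b and Ifih1, at 1.3 to 2.19-fold, with blocked adjusted p between 0.00934 and 0.0379. The study's methods set a difference of 0.3, with no p, for genes that change with the knockdown, and 17 members were higher and 0 lower by more than that, as were 1.87% and 3.27% of all genes. Those methods test significance for induction by TNF-α only. Carried over to the knockdown with the 0.3 limit, the methods' t-test called 11 members higher and 0 lower, where it called 0.741% of all genes higher and 1.46% lower, and it called 0 after Benjamini-Hochberg adjustment.

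**Figure D1:**
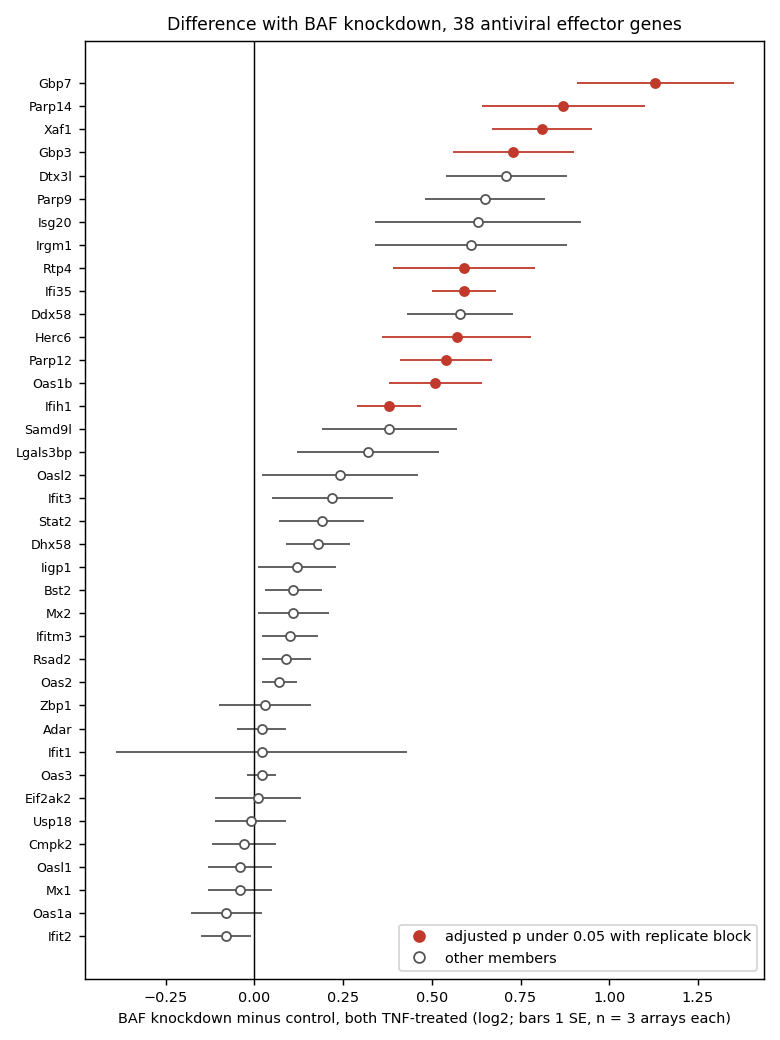
Difference between BAFkd_st and control_st cells (x axis, log2; bars 1 SE, n = 3 arrays each) for each of the 38 measured genes, sorted by size. Filled points passed an adjusted p of 0.05 with the replicate block; these 10 lie between 0.38 and 1.13, and no member with a difference below 0 passed.

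The guanylate-binding proteins and immunity-related GTPases, which attack pathogen-containing vacuoles and viral replication sites, had the highest median of any role group, 0.67 over 4 genes. Gbp7 had levels of 8.17, 8.15 and 9.0 in BAFkd_st cells, against 7.29, 7.40 and 7.23 in control_st cells and 6.97, 7.48 and 7.22 in control_ns cells. All 3 knockdown arrays lay above all 6 control arrays, and the difference from control_st was 1.13 ± 0.22, or 2.19-fold (adjusted p = 0.101, and 0.0255 with the block). Its chromosomal neighbour Gbp3 had 9.40, 9.26 and 9.99 in BAFkd_st cells, against 8.74, 8.82 and 8.90 in control_st cells and 8.37, 8.48 and 8.66 in control_ns cells, again with no overlap (0.73 ± 0.17; adjusted p = 0.157, blocked 0.0145). Gbp7 and Gbp3 are close paralogs on chromosome 3, and hybridisation of one transcript to the other's probes was not tested. Irgm1, an autophagy-linked regulator of this GTPase family, had 10.09, 9.35 and 10.62 in BAFkd_st cells and 9.32, 9.25 and 9.67 in control_st cells. These overlapped, and its difference of 0.61 ± 0.27 passed in neither fit. Iigp1, an effector GTPase, had a low signal on every array and a difference of 0.12.

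The PARP and ubiquitin-like enzymes followed, with a median of 0.61 over 6 genes. Parp14, a mono-ADP-ribosyltransferase, had 8.03, 7.67 and 8.73 in BAFkd_st cells, against 7.26, 7.16 and 7.40 in control_st cells and 7.11, 7.17 and 7.36 in control_ns cells. Its knockdown arrays were above all control arrays and also spread the most of the 3 groups (0.87 ± 0.23; adjusted p = 0.221, blocked 0.0253). Parp9 and Dtx3l, whose products form a complex that joins ADP-ribosylation to ubiquitination, lie beside Parp14 on chromosome 16. Dtx3l had 9.24, 8.91 and 9.65 in BAFkd_st cells and 8.58, 8.57 and 8.52 in control_st cells, with a difference of 0.71 ± 0.17 (blocked adjusted p = 0.0934). Parp9 differed by 0.65 ± 0.17 (blocked adjusted p = 0.0789). The arrays of both genes did not overlap between the groups, yet neither passed. Parp12, which blocks translation of viral RNA, had 10.48, 10.30 and 10.84 in BAFkd_st cells and 9.88, 10.03 and 10.11 in control_st cells (0.54 ± 0.13; adjusted p = 0.168, blocked 0.0329). Herc6, the ligase that attaches ISG15 to proteins in the mouse, was higher by 0.57 ± 0.21 (adjusted p = 0.471, blocked 0.0379). Usp18, which removes ISG15 and restrains the interferon receptor, is the exception in this group at -0.01 (95% CI -0.24 to 0.22).

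**Figure D2:**
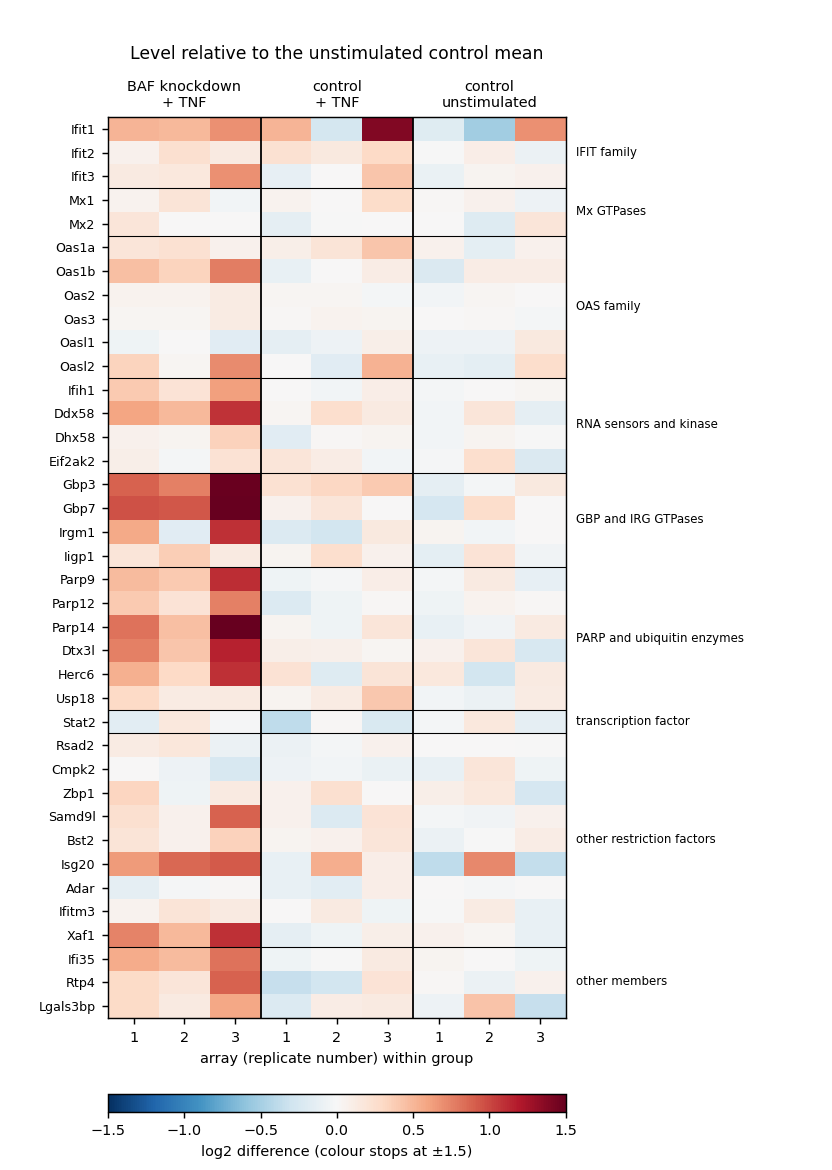
Level on each array minus the gene's mean over the control_ns arrays (log2; red higher, blue lower, colour ending at 1.5), for the 38 genes grouped by role, with arrays 1 to 3 of BAFkd_st, control_st and control_ns cells from left to right. The GBP and PARP rows are reddest on BAFkd_st array 3, where Gbp7 had 9.0, while the Mx, Oas2 and Oas3 rows stay pale throughout.

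Among the cytosolic RNA sensors, Ifih1 (MDA5, which detects long double-stranded RNA) had 6.87, 6.68 and 7.09 in BAFkd_st cells, against 6.48, 6.44 and 6.58 in control_st cells and 6.45, 6.48 and 6.51 in control_ns cells. The groups did not overlap, and the difference was 0.38 ± 0.09 (adjusted p = 0.19, blocked 0.0326). Ddx58 (RIG-I, which detects RNA with a 5′ triphosphate) had a larger difference, 0.58 ± 0.15, from 10.94, 10.84 and 11.43 in BAFkd_st cells and 10.38, 10.60 and 10.48 in control_st cells. It also showed no overlap but did not pass with the block (adjusted p = 0.0943). Dhx58 (LGP2), a regulator of both sensors, differed by 0.18. Eif2ak2 (PKR), the kinase that stops translation upon binding double-stranded RNA, differed by 0.01 (95% CI -0.27 to 0.28).

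Xaf1, a pro-apoptotic factor, had 8.71, 8.46 and 9.07 in BAFkd_st cells, against 7.83, 7.90 and 8.06 in control_st cells and 8.04, 8.0 and 7.86 in control_ns cells. The knockdown arrays lay above all 6 control arrays, with a difference of 0.81 ± 0.14 (adjusted p = 0.0744, blocked 0.0158). Ifi35 had the smallest adjusted p of all members without a block, 0.0599, with 9.38, 9.29 and 9.63 in BAFkd_st cells and 8.76, 8.81 and 8.95 in control_st cells (0.59 ± 0.09; blocked 0.00934). Rtp4 was higher by 0.59 ± 0.20 (adjusted p = 0.39, blocked 0.0329), though its lowest knockdown array, 7.92, was below the highest control_st array, 7.94. Lgals3bp, a secreted glycoprotein, differed by 0.32 (blocked adjusted p = 0.601). Neither Xaf1 nor Ifi35 held an ISRE core in its promoter window. Isg20, an RNA exonuclease, had 10.57, 10.79 and 10.85 in BAFkd_st cells and 9.82, 10.47 and 10.03 in control_st cells. These did not overlap, but its array-to-array spread was wide (0.63 ± 0.29; blocked adjusted p = 0.137). The other 6 restriction factors besides Xaf1, Isg20 and Samd9l had differences between -0.03 and 0.11, and that of Samd9l was 0.38 (blocked adjusted p = 0.201).

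The oligoadenylate synthetase family, some members of which make the messenger that activates RNase L, was mostly flat, with a median of 0.05 over 6 genes. Oas1b, known in the mouse for resistance to flaviviruses, had the largest difference and was the only OAS gene called with the block. It had 6.40, 6.28 and 6.72 in BAFkd_st cells, 5.84, 5.96 and 6.06 in control_st cells and 5.73, 6.06 and 6.06 in control_ns cells. The difference was 0.51 ± 0.13 (adjusted p = 0.208, blocked 0.0254). Its signal was low, with a mean of 6.12 over all arrays, below the first quartile of clusters, 6.41. Oas1a, Oas2, Oas3, Oasl1 and Oasl2 differed by -0.08, 0.07, 0.02, -0.04 and 0.24. Oasl2 was higher for each replicate number (0.33, 0.19 and 0.19), but it was not called (blocked adjusted p = 0.146). Oas1a and Oas1b belong to a family of similar copies, and cross-hybridisation between them was not tested. The IFIT proteins, which bind foreign RNA and block its translation, had a median of 0.02. Ifit1 had 8.47, 8.45 and 8.64 in BAFkd_st cells, against 8.47, 7.70 and 9.35 in control_st cells, a difference of 0.02 whose 95% CI, -0.92 to 0.95, allows a change in either direction. Ifit2 had 9.67, 9.84 and 9.73 in BAFkd_st cells and 9.83, 9.75 and 9.90 in control_st cells, a difference of -0.08 with a narrower interval of -0.23 to 0.08, and Ifit3 differed by 0.22. Mx1 and Mx2, dynamin-like GTPases that trap viral nucleocapsids, differed by -0.04 and 0.11.

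Rsad2 (viperin, which makes a chain-terminating nucleotide) had 6.71, 6.76 and 6.50 in BAFkd_st cells and 6.50, 6.56 and 6.65 in control_st cells (0.09; 95% CI -0.08 to 0.25). Its neighbour on chromosome 12, Cmpk2, differed by -0.03 (95% CI -0.23 to 0.17). Over the list, 16 members differed by less than 0.12 in either direction. Such small differences were common over all genes, whose quartiles were -0.05 and 0.06.

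**Figure D3:**
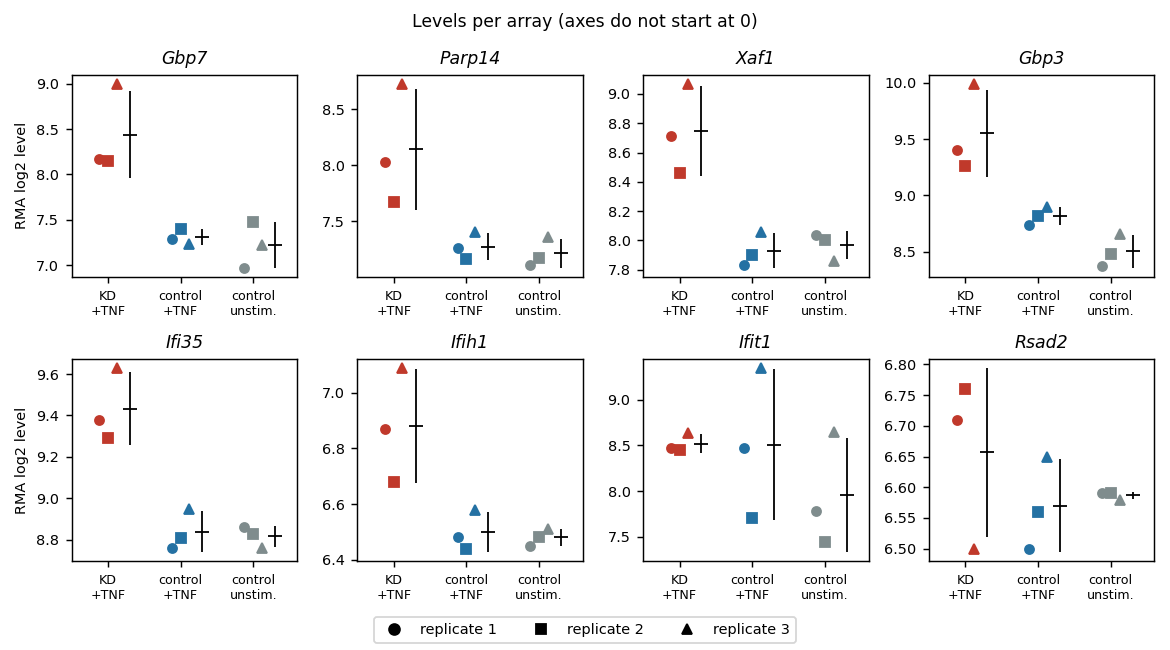
Log2 RMA level per array (y axis, not starting at 0) for 8 genes in BAFkd_st, control_st and control_ns cells, from left to right. The marker shape gives the replicate number and the bar the mean ± SD (n = 3 arrays); for Gbp7, Parp14, Xaf1, Gbp3, Ifi35 and Ifih1 all knockdown arrays lie above all control arrays, and for Ifit1 and Rsad2 they overlap.

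Some members lie next to each other in the genome. Parp14, Dtx3l and Parp9 on chromosome 16 had 0.87, 0.71 and 0.65, and Gbp7 and Gbp3 on chromosome 3 had 1.13 and 0.73. Oas2 and Oas3 on chromosome 5 had 0.07 and 0.02 and Rsad2 and Cmpk2 had 0.09 and -0.03, whereas Ifit2 and Ifit3 on chromosome 19 had -0.08 and 0.22 and Oasl2 and Oasl1 on chromosome 5 had 0.24 and -0.04.

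The median member difference was above 0 for each replicate number. Between arrays of the same number, it was 0.26, 0.17 and 0.26 in BAFkd_st minus control_st cells, with 34, 33 and 28 of the 38 genes above 0, where 56.9%, 43.1% and 44.2% of all genes were. For all 3 numbers 25 members were above 0, and no member was below 0 for all 3. The share of all genes on 1 side for all 3 numbers is not given here, so these counts have no background beside them. In 14 members every knockdown array was above every control_st array, and in 0 the reverse, where 4.63% of all genes were separated upward and 5.47% downward; 9 of the 10 called members were among the 14, Rtp4 being the exception. The size differed between arrays: each of the 10 called members was highest on BAFkd_st array 3 and lowest on array 2, and 26 of the 38 were highest on array 3, as were 22.4% of all genes. Smarca4 differed by -1.12, -0.90 and -1.31 for the 3 numbers. The median SD of the 10 genes was 0.34 within BAFkd_st cells and 0.12 within control_st cells. The 10 were called from these same arrays, so their separation adds no support to the calls. Without the arrays of replicate 1 or of replicate 3, the blocked fit called 0 members, and without those of replicate 2 it called 12. These refits had fewer arrays for every gene. The share of all genes called in them is not given here, so the counts have no background beside them. The median of 0.21 was 0.12 without control_st array 1 and 0.38 without control_st array 3.

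**Figure D4:**
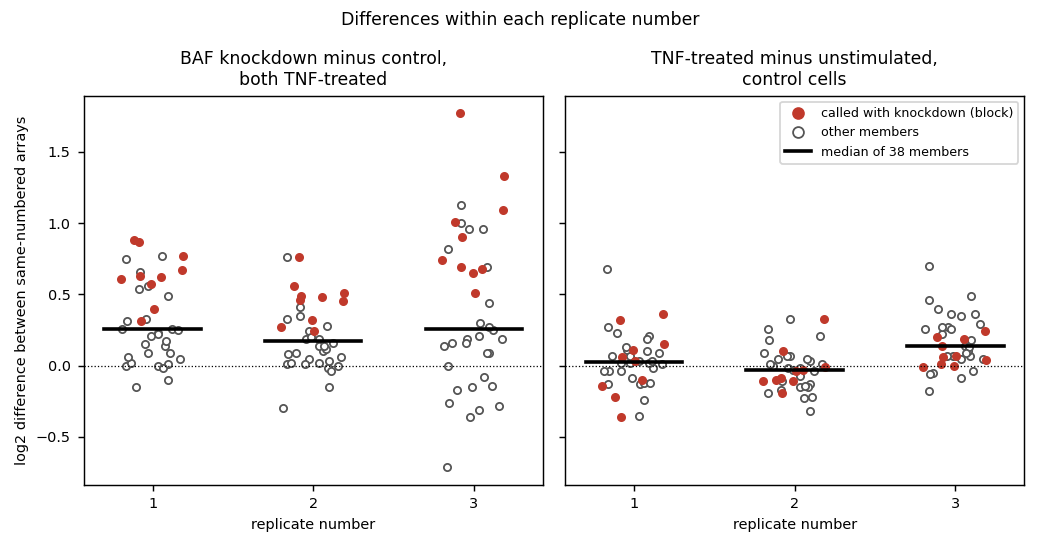
Log2 differences between arrays of the same replicate number (x axis) for the 38 genes, BAFkd_st minus control_st cells on the left and control_st minus control_ns cells on the right, with a bar at the median. Filled points are the 10 genes called with the block. With the knockdown all of them lie above 0 for each number, but they were called from these same differences. Medians of the 38 genes are 0.26, 0.17 and 0.26, against 0.02, -0.03 and 0.13 for TNF-α.

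Other features of the cells moved beside these genes. The mean level of 12 fibroblast markers, all measured, was 10.74 to 11.10 on the BAFkd_st arrays, 11.23 to 11.60 on the control_st arrays and 11.30 to 11.63 on the control_ns arrays. The difference between BAFkd_st and control_st cells was below 0 for all 12. With the block 4 were called (Dcn -2.13, S100a4 -1.18, Col3a1 -0.93, Pdgfra -0.57), where 2.33% of all genes were called lower. Without the block 0 of the 12 were called. Vim, the intermediate filament vimentin, averaged 13.98 in each group. The mean of 14 measured leukocyte markers was 6.95 to 7.05 in BAFkd_st, 6.95 to 7.01 in control_st and 6.94 to 6.99 in control_ns cells, with Ptprc (CD45) at 6.32 ± 0.01, 6.34 ± 0.03 and 6.26 ± 0.04 (SD, n = 3), near or below the first quartile of all clusters, 6.41. The part of the fibroblast markers in the result was not tested, and in bulk RNA fewer cells of a type cannot be told apart from less RNA per cell.

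The comparison of control_st with control_ns cells gave the response to 1 h of TNF-α alone, and no antiviral effector was called in it. It shares the control_st arrays with the knockdown comparison. Of the 38, 27 had a higher mean and 11 a lower one, the median was 0.03 against -0.0 over all genes, and differences ran from -0.20 to 0.55. No member passed limma without the block (lowest adjusted p = 1.0) or with it (0.656), and the methods' t-test called 0; over all genes, limma called 0.137% higher and 0.0% lower without the block and 0.366% higher and 0.0305% lower with it, and the methods' t-test 0.543% and 0.0406%. Before adjustment 2 members had a p under 0.05, Ifit2 (0.23) and Oas1a (0.24), both higher, where 1.85% of all genes were higher and 1.22% lower. Ifit1 had the largest difference, 0.55, with 8.47, 7.70 and 9.35 in control_st cells and 7.78, 7.44 and 8.65 in control_ns cells. It was higher for each of the 3 replicate numbers, but the groups overlapped and its SD of 0.83 in control_st cells was the largest of any member. Gbp3 followed with 0.31, and Ifit2, Oas1a and Gbp3 were the 3 members whose arrays did not overlap, where 3.19% of all genes were separated upward and 2.78% downward. Stat2, the signalling component of the list, had the most negative difference, with 8.50, 8.90 and 8.65 in control_st cells and 8.85, 9.04 and 8.74 in control_ns cells (-0.20 ± 0.12). It was 8.72, 9.04 and 8.86 in BAFkd_st cells.

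Set against control_ns cells, BAFkd_st cells carried both changes at once, and the knockdown, TNF-α and their combination cannot be told apart in this comparison. Here 4 members rose without a block, Gbp3 by 1.05 (adjusted p = 0.0286), Gbp7 by 1.22 (0.0425), Ifi35 by 0.62 (0.0204) and Xaf1 by 0.78 (0.0414), where 0.518% of all genes were called higher and 0.599% lower. None was called lower. With the block 13 were called higher, where 1.98% of all genes were higher and 3.36% lower. The 13 were Gbp3, Gbp7, Ifi35, Xaf1, Ddx58, Herc6, Ifih1, Iigp1, Isg20, Oas1b, Oasl2, Parp12 and Parp14. This comparison shares its arrays with both others. Carried over with the 0.3 limit, the methods' t-test called 9 higher, where it called 1.45% of all genes higher and 1.79% lower, and 0 after adjustment. The median was 0.33, 34 members were above 0, and 16 were separated upward, where 7.01% of all genes were and 7.0% were separated downward. The calls changed when arrays were left out, and the share of all genes called in those refits is not given here. With the block, 0 were left without replicate 1 and 3 without replicate 3, and the median was 0.20 without BAFkd_st array 3. Without a block, leaving out control_ns array 1 or 3 or BAFkd_st array 1 left 0. Leaving out any 1 of the control_st arrays left 1 (Ifi35), and leaving out BAFkd_st array 3 left 1 (Gbp3). Leaving out control_ns array 2 called none of the 4 and 1 other gene, Isg20. Leaving out BAFkd_st array 2 gave 9.

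The rest of the pathway was read from fixed lists in the knockdown comparison. Of 14 measured interferon ligands and receptors, 0 were called in either fit. The largest difference was 0.22, for Ifnl2 (limma adjusted p = 0.142, blocked 0.0556). Its BAFkd_st levels of 9.03, 8.98 and 9.09 lay above the control_st levels of 8.77, 8.84 and 8.85. They overlapped the control_ns levels of 8.96, 8.99 and 9.02. Ifnb1, the interferon that fibroblasts make, had 6.32, 6.30 and 6.18 in BAFkd_st cells and 6.22, 6.27 and 6.38 in control_st cells, a difference of -0.02 at a signal below the first quartile of clusters. The receptor chains Ifnar1 and Ifnar2 differed by -0.10 and -0.16. Of 11 JAK-STAT genes none was called, with a median of -0.06. Among 14 nucleic acid sensing genes the block called Tlr3, the endosomal receptor for double-stranded RNA, higher by 0.84 (adjusted p = 0.0664 without the block, 0.0224 with it). It called Sting1, the adaptor of cytosolic DNA sensing, lower by 0.77 (difference -0.77; 0.139 and 0.0127). Of 6 interferon regulatory factors only Irf5 was called, at -0.45 with the block (adjusted p = 0.0033). Irf1 rose with TNF-α, by 1.37 in control_st minus control_ns cells (adjusted p = 0.000329), and differed by 0.33 in BAFkd_st minus control_st cells (blocked 0.0688).

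The 39 measured genes on the list of other interferon-stimulated genes came closest to the effectors, with a median of 0.21, 7 called higher and 2 lower with the block and 0 without it. The 7 fall into known functions. Cxcl10, Cxcl11 and Ccl5 encode chemokines that attract lymphocytes, Tap2 and Psmb10 serve antigen processing, Rnf213 encodes a large ubiquitin ligase and Trim30a a TRIM protein. Cxcl10 had 12.65, 12.64 and 13.43 in BAFkd_st cells, against 11.59, 10.70 and 12.40 in control_st cells and 9.02, 8.45 and 10.32 in control_ns cells. It was higher by 1.34 with the knockdown (adjusted p = 0.518, blocked 0.0117) and by 2.30 with TNF-α (0.514, blocked 0.0034), and the 3 groups did not overlap. Tap2 had 9.43, 8.85 and 10.05 in BAFkd_st cells, 8.22, 8.32 and 8.14 in control_st cells and 8.24, 8.29 and 8.18 in control_ns cells, a knockdown difference of 1.21. Slfn2 went the other way, with 8.92, 8.04 and 8.43 in BAFkd_st cells, 9.82, 8.96 and 9.31 in control_st cells and 7.95, 7.56 and 7.62 in control_ns cells. Its difference was -0.90 with the knockdown (adjusted p = 0.288, blocked 0.00322) and 1.65 with TNF-α (0.0882, blocked 0.000334). Ifi203 was also called lower, at -0.51.

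**Figure D5:**
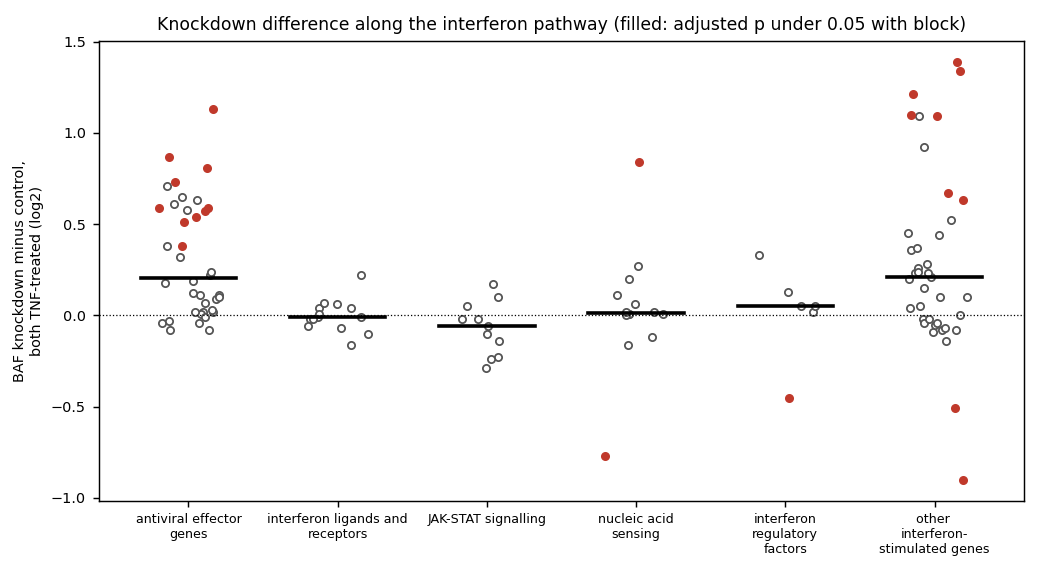
BAFkd_st minus control_st difference (y axis, log2) for each measured gene of the antiviral effectors and of 5 lists along the interferon pathway, with a bar at each list's median. Filled points passed an adjusted p of 0.05 with the block; the medians are 0.21 for the effectors and for the other interferon-stimulated genes, and -0.01 for ligands and receptors.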

How the data were processed

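Total RNA of 9 samples was hybridised to 1 array each. The authors deposited log2 signals per transcript cluster after RMA, which corrects background, quantile-normalises the arrays and summarises probes by median polish, so array-wide shifts are removed; 0 other value columns were present. Detection calls and the array annotation's genome build are not given in the sources used here. Of 27024 clusters, 21319 had 1 symbol, 1430 several and 4275 none in the platform annotation. For 930 genes with more rows the row with the highest mean was kept, which left 19698 genes. Array correlations were 0.9916 to 0.9982, and 0 pairs were identical.

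Groups came from the sample labels. limma 3.58.1 (R 4.3.3) was fitted with 1 mean per group over all 9 arrays, two-sided, with Benjamini-Hochberg adjustment over all genes and a threshold of 0.05, and was first tested on simulated data. Fold is 2 to the power of the log2 difference. Replicate numbers paired the arrays: the methods place replicates on different days, although the labels do not say that a number marks a day, and deviations from group means correlated at 0.2095 to 0.7244 in all 9 same-number pairs, against -0.5662 to 0.0111 in 18 others. Between control_st and BAFkd_st arrays the same-number values were 0.3876, 0.2095 and 0.2468. Deviations within a group cancel out, so the values of the 18 are not independent of those of the 9. The fit with the number as a block is therefore given where it changes a call. Alternatives left out arrays, weighted arrays, used 2 groups only, all rows or a filter on low signals, other scaling, and the methods' t-test (unadjusted, with a difference limit of 0.35), which the methods state for TNF-α induction only and which was carried over to the knockdown comparisons with the limit of 0.3 that they set there without a p.

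The members and lists were chosen with earlier results of these data known, so no set test was run. Genes named were those called in any comparison, the 12 largest knockdown and 5 largest TNF-α differences, and the 3 highest and lowest signals; others were named after their values were seen, to complete a family. Signals of different genes were not compared as levels. Promoter sequences and symbols are from RefSeq.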

Additional observations from a re-analysis of the deposited data

How the results depend on the processing

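No member changed sign of a called difference under any alternative. Over 35 named results 625 of 732 alternative values kept their direction and side of the threshold, 64 newly passed and 43 no longer passed. A result that did not pass in the main fit counts as kept where it still did not pass. The 43 can come only from results that passed in the main fit, and 5 such results failed the methods' t-test after Benjamini-Hochberg adjustment. In BAFkd_st minus control_st cells the count of called members was 0, 10 with the replicate block, 11 with the methods' t-test and 1 with array weights (Ifi35). Leaving out single arrays gave 0 to 4, the 4 (Dtx3l, Ifi35, Ifih1, Xaf1) without BAFkd_st array 2, and the block without 1 replicate number gave 0 to 12. The median ran from 0.12 to 0.38 without single arrays. In control_st minus control_ns cells the count was 0 throughout, and the median of 0.03 ran from -0.01 to 0.05 without single arrays and was 0.09 in the block without replicate 2. In BAFkd_st minus control_ns cells the count of 4 was 13 with the block, 9 by the methods' t-test and 0 after its adjustment, 0 with only those 2 groups, 0 to 9 without single arrays and 0 to 14 in the block without 1 replicate number, and the median of 0.33 ran from 0.20 to 0.42 without single arrays. The block changed no TNF-α call among the 38 members. The cause of these moves was not tested. Refits that left out arrays had fewer arrays for every gene, and their shares of all genes called are not given here. With 3 arrays a group and no detection calls, low signals such as those of Mx1, Mx2 and Iigp1 bound no small change. Oas1b, called with the block, also had a mean below the first quartile of clusters, and the filter on low signals left it out.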

Other observations

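A cluster annotated to Gbp6 together with Gbp4, Gbp8, Gbp9, Gbp10 and Gbp11, which belongs to no single gene, had levels of 9.20, 8.80 and 9.18 in BAFkd_st cells, 8.58, 8.99 and 8.23 in control_st cells and 8.11, 8.63 and 7.55 in control_ns cells. The first 2 groups overlapped, and BAFkd_st lay above control_ns on every array. A cluster shared by Oas1a and Oas1g was between 6.57 and 6.77 on all 9 arrays. The brightest member was Ifitm3, with means of 13.33, 13.23 and 13.21 in BAFkd_st, control_st and control_ns cells, so that its difference of 0.10 was read near the top of the scale.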
